A study of Mus musculus with 18 samples.

Results

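The genes described here are 10 immediate early genes (Fos, Fosb, Jun, Junb, Egr1, Dusp1, Atf3, Ier2, Ier3 and Klf6), chosen by name through the array's platform annotation. Each name matched 1 probe set, so the group holds 10 of the 22180 genes that the annotation names on the array. They were measured in young germ-free C57BL/6 mice that had received gut microbiota from old donors (OMT) or from young donors (YMT), in small intestine and in liver. Each tissue had 5 OMT arrays and 4 YMT arrays, 1 array per biological replicate. The OMT donors were about 24 months old, and the YMT donors are given as 4 weeks old in one place of the labels and as 5 to 6 weeks old in another. All recipients were 5 to 6 weeks old at transfer and were sampled 8 weeks later, at a stated age of 12 or 13 weeks; both groups thus received a transferred microbiota, and no mice left germ-free are analysed here. The number of donors and cages, and the time of day, feeding and handling at tissue collection, are not stated by the submitters. Donor age and a shared donor or cage cannot be told apart.

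Immediate early genes are transcribed within minutes of a stimulus, by transcription factors that already wait in the cell and need no new protein. Growth factors, hormones, cytokines and stress reach them through the MAP kinases ERK, JNK and p38 and through cAMP signalling, and their messenger RNAs decay quickly. FOS, FOSB, JUN, JUNB and ATF3 are basic leucine zipper proteins that pair with each other as AP-1 and related dimers, EGR1 and KLF6 are zinc finger transcription factors, DUSP1 is a phosphatase that switches MAP kinases off again, and IER2 and IER3 are small proteins of the same early wave. In liver the wave is known from regeneration after surgery and from feeding and hormones, and in the gut epithelium from growth factors and injury.

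The stretch in front of a gene's start is where signal-dependent factors act, so the 250 bases upstream of the start are shown for the 4 genes that passed a test below, and for Fos as the closest relative of Fosb. Sequences come from RefSeq on the mouse build GRCm38.p6. A whole chromosome and all sequences of another length were left out before the genes were matched. Of the 10 genes, 8 had an entry among the promoters kept, and Egr1 and Ier2 had none, which need not mean that RefSeq lacks them. Capitals mark TGACG on either strand, the core of the cAMP response element; TGACGTCA, the full element, which contains TGACG; and TGACATCA, a variant known from the Jun promoter and searched after that sequence had been seen.
Fosb, chr7:19310046-19310295, strand -: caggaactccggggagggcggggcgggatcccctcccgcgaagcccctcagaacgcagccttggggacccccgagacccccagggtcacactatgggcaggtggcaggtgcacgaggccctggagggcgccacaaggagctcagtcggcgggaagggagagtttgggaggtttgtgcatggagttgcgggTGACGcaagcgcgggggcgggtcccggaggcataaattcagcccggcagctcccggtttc
Fos, chr12:85473640-85473889, strand +: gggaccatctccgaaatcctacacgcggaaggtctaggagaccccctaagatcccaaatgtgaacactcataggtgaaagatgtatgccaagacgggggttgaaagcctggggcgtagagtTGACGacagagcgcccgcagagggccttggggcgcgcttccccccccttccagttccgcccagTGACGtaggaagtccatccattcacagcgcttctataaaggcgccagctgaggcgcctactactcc
Jun, chr4:95052223-95052472, strand -: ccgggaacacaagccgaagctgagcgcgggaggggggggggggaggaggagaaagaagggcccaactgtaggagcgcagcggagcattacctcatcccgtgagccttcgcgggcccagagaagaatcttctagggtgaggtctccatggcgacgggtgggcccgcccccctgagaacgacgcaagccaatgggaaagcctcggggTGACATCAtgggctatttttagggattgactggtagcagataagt
Atf3, chr1:191183334-191183583, strand -: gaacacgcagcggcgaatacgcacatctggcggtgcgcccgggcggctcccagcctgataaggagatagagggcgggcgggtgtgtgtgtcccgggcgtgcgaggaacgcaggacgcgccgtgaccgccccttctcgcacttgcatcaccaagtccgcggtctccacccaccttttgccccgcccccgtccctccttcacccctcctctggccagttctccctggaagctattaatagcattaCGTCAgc
Dusp1, chr17:26508473-26508722, strand -: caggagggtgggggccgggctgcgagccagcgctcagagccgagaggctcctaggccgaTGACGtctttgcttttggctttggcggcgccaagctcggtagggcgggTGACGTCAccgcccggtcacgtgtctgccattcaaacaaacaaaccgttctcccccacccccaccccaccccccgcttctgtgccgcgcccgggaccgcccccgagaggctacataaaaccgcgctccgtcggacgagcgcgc

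The short core TGACG was found upstream of Fosb, Fos, Junb, Atf3 and Dusp1, 5 of the 8 genes with a sequence, and in 17.8% of the 32851 promoters kept. Dusp1 held the full TGACGTCA, 143 to 136 bases before its start, which 1.5% of promoters held. TGACATCA stood upstream of Jun and Klf6 and in 2.9% of promoters. GCGNGGGCG, the site of EGR factors, matched Fosb, 50 to 42 bases before the start, and 4.7% of promoters. Neither TGANTCA, the AP-1 site (6.7% of promoters), nor the CArG box of serum response factor (1.5%) matched any of the 8 within this window. These are matches of letters, and the known CArG box of Fos lies further upstream than the window reaches.

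Levels are the log2 values that the authors deposited. A difference is OMT minus YMT within a tissue, with its standard error (SE) from limma, and an adjusted p is limma's p after Benjamini-Hochberg adjustment over all genes tested in that tissue, with a threshold of 0.05. The tissues matched their labels, with albumin (Alb) at 13.21 to 13.26 in liver and 3.67 to 4.68 in intestine, and villin (Vil1) at 3.77 to 4.29 in liver and 11.97 to 12.27 in intestine. The median over all probe sets was 4.39 to 4.51 on the intestine arrays and 4.12 to 4.22 on the liver arrays. All 10 genes passed the level filter, a value above the array's median on at least 4 arrays, in both tissues. Fosb in liver did so on 3 of the 5 OMT arrays and on all 4 YMT arrays, and every other gene did so on every array.

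In the small intestine, Fosb was the only immediate early gene of the 10 that passed the threshold, and it was 2.28-fold higher in OMT than in YMT recipients. It was called against a background of 1.04% of genes higher in OMT and 3.10% lower. In the liver, Jun (1.65-fold) and Atf3 (1.30-fold) were higher in OMT, and Dusp1 was lower, at 0.530 times its YMT level. These 3 calls stand against a liver background of 10.4% of genes higher and 8.78% lower. The other 9 genes in intestine and 7 in liver did not pass. The median difference of the 10 was 0.17 in intestine and -0.15 in liver, and that of all genes tested was -0.02 in intestine and -0.005 in liver. The genes higher in OMT made up 25.2% of all intestinal calls as deposited, 40.1% after quantile normalization and 17.4% after centring arrays on their medians, and Fosb was called under each. The plot of levels by group and the plot of differences show these values gene by gene.

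**Figure D1:**
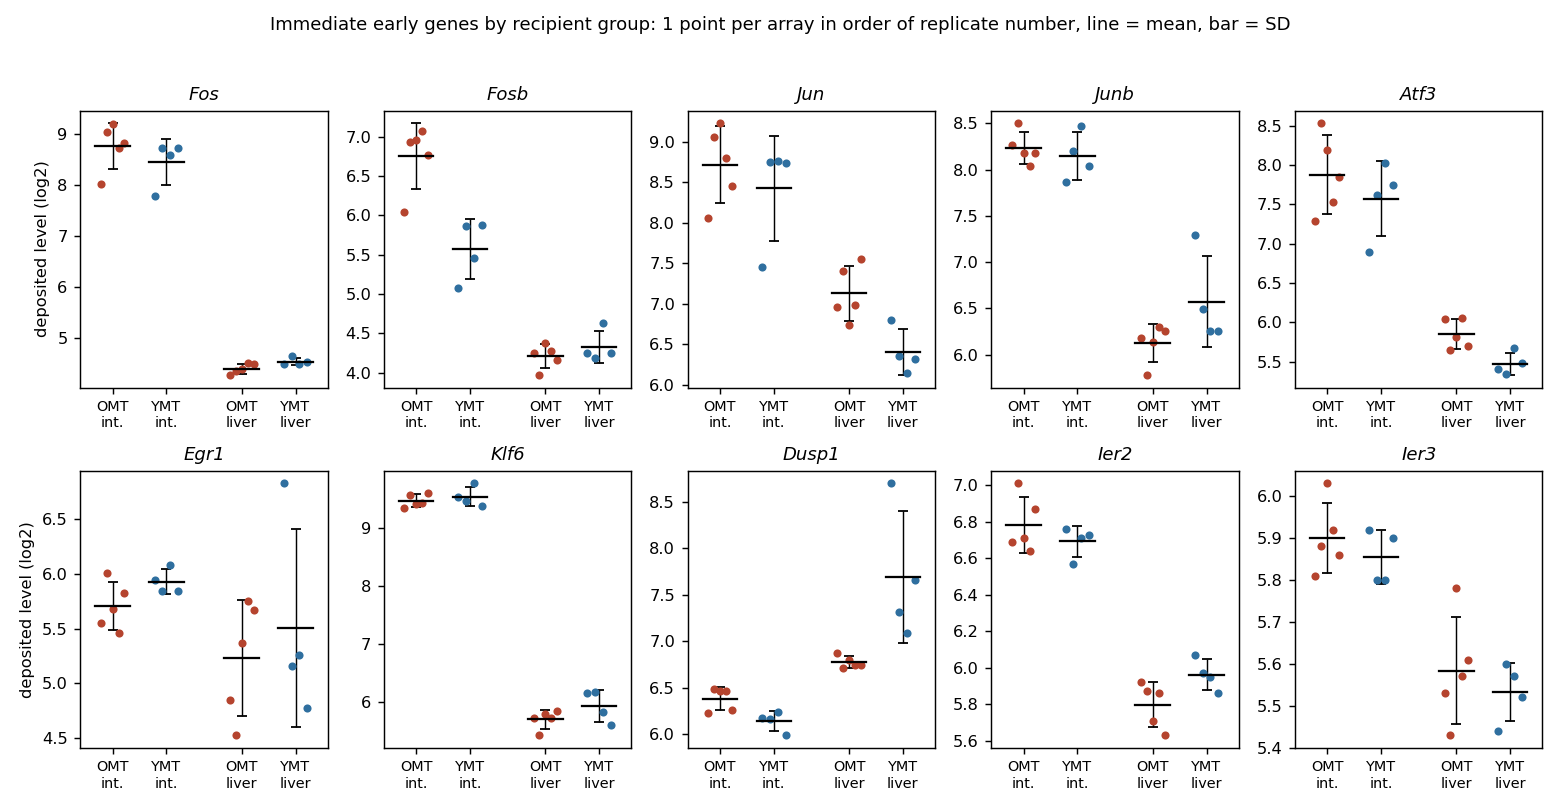
Deposited log2 level of each of the 10 immediate early genes, with 1 point per array in order of replicate number, for OMT and YMT small intestine (int.) and OMT and YMT liver; lines are means and bars are SD (n = 5 OMT and 4 YMT per tissue), and each panel has its own axis. The Fosb panel shows all OMT intestines (6.04 to 7.08) above all YMT intestines (5.08 to 5.88), and the Dusp1 panel all OMT livers (6.71 to 6.87) below all YMT livers (7.09 to 8.70).

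**Figure D2:**
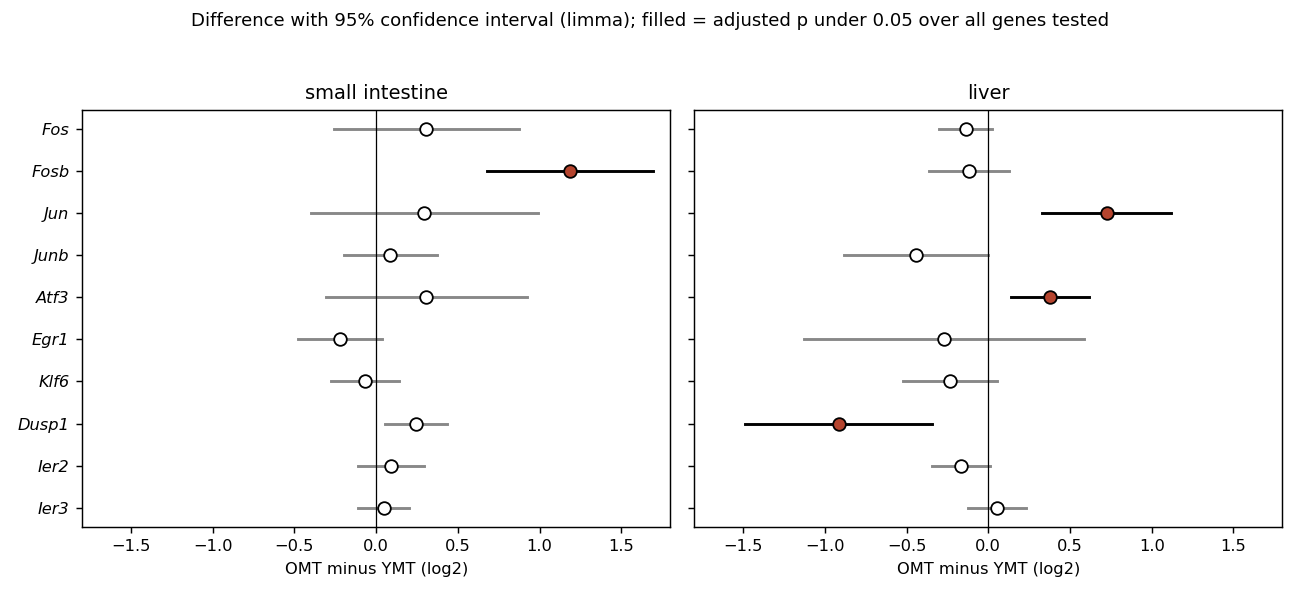
Difference of OMT minus YMT on the log2 scale (horizontal axis) for each gene in small intestine (left) and liver (right), with its 95% confidence interval from limma; filled points passed an adjusted p of 0.05. The filled points are Fosb at 1.19 in intestine and Jun at 0.73, Atf3 at 0.38 and Dusp1 at -0.92 in liver.

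The FOS family gave the largest difference in intestine. Fosb (probe set 17487211), a partner of JUN proteins in AP-1, was at 6.04, 6.94, 6.96, 7.08 and 6.77 in the OMT intestines, against 5.08, 5.86, 5.46 and 5.88 in the YMT intestines. The groups did not overlap, and replicate 1 was the lowest array in each. The difference was 1.19 ± 0.23 (SE, adjusted p = 0.0233). Groups apart in this way were found for 2.80% of genes tested in intestine with OMT higher and for 6.84% with OMT lower, and for no other of the 10 genes there.

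The Fosb call in intestine is narrow. Leaving out single arrays gave differences of 1.02 to 1.37, and the adjusted p passed 0.05 without OMT replicate 2 (0.0621) or 3 (0.0558), or without YMT replicate 1 (0.0548), 2 (0.0511) or 3 (0.0515). Mean levels of T cell and NK cell markers and of goblet cell markers also lay apart between these intestines, and those of enterocyte markers overlapped, with no test run. Over all 7 T cell and NK cell markers the mean level was 6.79 to 7.42 in OMT and 7.49 to 8.06 in YMT, over all 7 goblet cell markers 10.89 to 11.44 in OMT and 11.49 to 11.71 in YMT, and over all 10 enterocyte markers 11.79 to 12.09 in OMT and 10.99 to 11.97 in YMT. Every marker of these 3 lists was above the array's median on at least 1 array of each group. Their part in the Fosb difference was not tested. In such bulk tissue, fewer cells of a type and less RNA per cell cannot be told apart.

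Fos (probe set 17277387), the best known of these genes, overlapped between the groups in intestine. It was at 8.03, 9.04, 9.20, 8.73 and 8.84 in OMT, against 7.80, 8.73, 8.59 and 8.73 in YMT. Both groups had their lowest value on replicate 1. The difference was 0.31 ± 0.26 (adjusted p = 0.50), with a 95% confidence interval of -0.26 to 0.87, so a difference as large as that of Fosb lay outside it.

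In liver both FOS genes lay close to the array medians, where RMA values respond little to changes in RNA. Fos was at 4.28 to 4.51 over the OMT livers and at 4.49 to 4.65 over the YMT livers, a difference of -0.14 ± 0.07 (adjusted p = 0.217). Fosb was at 3.97 to 4.38 in OMT and at 4.18 to 4.63 in YMT, a difference of -0.12 ± 0.11 (adjusted p = 0.497). The intestinal difference of Fosb minus that in liver was 1.31 ± 0.26 (adjusted p = 0.00385 in a limma fit of all 18 arrays). With liver values this close to the medians, that value mostly restates the intestinal difference, and a change of Fosb RNA in liver may not have been detectable. In that fit 11.9% of 11965 genes passed. With each array left out the Fosb value was 1.14 to 1.49 and its adjusted p at most 0.00971.

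Of the JUN genes, Jun passed in liver and Junb in neither tissue. Jun (probe set 17427312), the main partner of FOS proteins and a substrate of JNK, was at 6.96, 7.41, 6.74, 6.98 and 7.55 in the OMT livers, against 6.80, 6.35, 6.14 and 6.32 in the YMT livers. The groups overlapped only in that OMT replicate 3 lay below YMT replicate 1. The difference was 0.73 ± 0.18 (adjusted p = 0.017). The adjusted p passed 0.05 without YMT replicate 2 (0.0502) or 3 (0.0538), without both OMT livers numbered 1 and 2 (0.0529), and with all 18 arrays in the fit (0.0634).

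Jun in intestine varied widely within the groups. It was at 8.06, 9.06, 9.23, 8.80 and 8.45 in OMT, against 7.45, 8.75, 8.76 and 8.74 in YMT. Replicate 1 was again the lowest array of each group, and it lay 1.29 below the next YMT array. The difference was 0.30 ± 0.31 (adjusted p = 0.607), and without YMT replicate 1 it was -0.03. For intestine minus liver the difference of Jun was -0.43 ± 0.38 (adjusted p = 0.489), with an interval of -1.22 to 0.36.

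Junb (probe set 17511259), a JUN protein that can restrain JUN, did not pass in either tissue. In liver it was at 6.18, 5.78, 6.14, 6.30 and 6.25 in OMT, against 7.29, 6.49, 6.26 and 6.25 in YMT, with YMT replicate 1 highest. The difference was -0.44 ± 0.20 (adjusted p = 0.154), and without YMT replicate 1 it was -0.20. In intestine Junb was at 8.04 to 8.50 in OMT and at 7.87 to 8.47 in YMT (0.09 ± 0.13, adjusted p = 0.72).

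Atf3 (probe set 17231033), a stress-induced factor that lies downstream of ATF4, was at 6.04, 5.65, 5.81, 6.06 and 5.70 in the OMT livers, against 5.41, 5.34, 5.67 and 5.48 in the YMT livers. The groups overlapped in that OMT replicate 2 lay just below YMT replicate 3. The difference was 0.38 ± 0.11 (adjusted p = 0.0323). It is the least firm of the 4 calls. The adjusted p passed 0.05 without OMT replicate 1 (0.068), 3 (0.0502) or 4 (0.0565), and without YMT replicate 1 (0.0778), 2 (0.0979) or 4 (0.0679). It did so as well with all 18 arrays in the fit (0.258), without the arrays numbered 1 (0.138) and with the mean small nucleolar RNA level as a covariate (0.058). A replicate block (0.0566), centring each array on its median (0.0556), no level filter (0.0546) and leaving out both OMT livers numbered 1 and 2 (0.0509) also lost the call. The difference kept a size of 0.31 to 0.44 over all alternatives. In intestine Atf3 was at 7.29 to 8.53 in OMT and at 6.90 to 8.02 in YMT, a difference of 0.31 ± 0.28 (adjusted p = 0.54).

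Dusp1 (probe set 17342642), the MAP kinase phosphatase of the group and a target of glucocorticoids, was the only gene of the 10 that passed as lower in the OMT liver. It was at 6.87, 6.71, 6.80, 6.75 and 6.75 in OMT, against 8.70, 7.32, 7.09 and 7.66 in YMT. The groups did not overlap, which held for 8.51% of liver genes with OMT lower and 9.64% with OMT higher. The OMT livers lay within 0.16 of each other and the YMT livers spread over 1.61, with replicate 1 highest. The difference was -0.92 ± 0.26 (adjusted p = 0.0308).

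The size of the Dusp1 difference rests partly on YMT replicate 1, since without that liver it was -0.58, with an adjusted p of 0.0101. The adjusted p passed 0.05 without OMT replicate 2 (0.0583), 3 (0.053), 4 (0.0507) or 5 (0.065), without YMT replicate 4 (0.0665), and without both OMT livers numbered 1 and 2 (0.088). In intestine Dusp1 was at 6.23, 6.49, 6.47, 6.47 and 6.26 in OMT, against 6.17, 6.16, 6.24 and 5.99 in YMT. The groups overlapped only in that OMT replicate 1 lay 0.01 below YMT replicate 3, and the difference was 0.24 ± 0.09 (adjusted p = 0.13). Between the tissues the difference of Dusp1 was unequal by 1.16 ± 0.29 for intestine minus liver (adjusted p = 0.0144), and by 0.82 (adjusted p = 0.00204) without YMT liver replicate 1. Dusp1 and Fosb were the only 2 of the 10 genes that passed this test.

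Marker levels of other liver cells also lay apart between the groups that gave the Jun, Atf3 and Dusp1 calls, with no test run. Over all 8 endothelial markers the mean level was 6.44 to 6.69 in OMT and 6.87 to 7.11 in YMT livers, over all 8 fibroblast and stellate cell markers 6.10 to 6.25 in OMT and 6.27 to 6.66 in YMT, and over all 8 smooth muscle markers 4.86 to 5.02 in OMT and 5.07 to 5.33 in YMT. All markers of these lists were above the array's median on some array of each group. Kupffer cell and macrophage markers overlapped, at 6.79 to 7.09 in OMT and 6.75 to 6.98 in YMT, as did the 8 neutrophil markers, at 3.58 to 3.80 in OMT and 3.57 to 3.72 in YMT. Of these 8, S100a8, Ly6g, Mpo and Retnlg lay below the array's median on all liver arrays, and the other 4 lay above it on some array of each group. The part of these cells in the 3 calls was not tested.

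Of the zinc finger factors, Egr1 (probe set 17349514), a factor induced through ERK, did not pass and had the widest spread in liver. It was at 4.85, 4.53, 5.37, 5.75 and 5.67 in the OMT livers, against 6.82, 5.16, 5.26 and 4.78 in the YMT livers. YMT replicate 1 was again the highest array. The difference of -0.27 ± 0.39 (adjusted p = 0.674) had an interval of -1.13 to 0.59, and it turned to 0.17 without YMT replicate 1. In intestine Egr1 was at 5.46 to 6.01 in OMT and at 5.84 to 6.08 in YMT, a difference of -0.22 ± 0.11 (adjusted p = 0.278).

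Klf6 (probe set 17285000), also called core promoter element-binding protein, was well above the array medians in intestine, at 9.34 to 9.60 in OMT and 9.39 to 9.77 in YMT. Its difference there was -0.07 ± 0.09 (adjusted p = 0.696), with an interval of -0.28 to 0.14. In liver it was at 5.43 to 5.85 in OMT and at 5.60 to 6.18 in YMT (-0.24 ± 0.13, adjusted p = 0.24). Ier2 (probe set 17511130), a nuclear protein of the early wave, was at 5.63 to 5.92 in the OMT livers and at 5.86 to 6.07 in the YMT livers (-0.16 ± 0.08, adjusted p = 0.185). Its intestinal difference was 0.09 ± 0.09 (adjusted p = 0.576). Ier3 (probe set 17337228), which modulates cell survival, varied least: its values spanned 5.80 to 6.03 over all intestines and 5.43 to 5.78 over all livers. Its differences were 0.05 ± 0.07 in intestine (adjusted p = 0.73) and 0.05 ± 0.08 in liver (adjusted p = 0.701), with intervals of -0.11 to 0.20 and -0.12 to 0.23.

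Within the groups some of the genes moved together. Deviations of each array from its own group mean were compared over the 9 arrays of a tissue, as a description, and correlations were not tested between the tissues. In intestine Fos, Fosb, Jun and Atf3 shared their low arrays. OMT replicate 1 lay 0.74 below its group mean for Fos, 0.72 for Fosb, 0.66 for Jun and 0.59 for Atf3. YMT replicate 1 lay 0.66, 0.49, 0.98 and 0.67 below for the same genes in that order. Junb, Egr1, Dusp1, Ier2, Ier3 and Klf6 stayed within 0.28 of their group means on both arrays. Fos and Jun had a Pearson correlation of 0.94 (Spearman 0.91) over the 9 deviations, and 0.74 without these 2 arrays. Fos and Fosb had 0.89 (Spearman 0.49), and 0.20 without the 2 arrays, so that relation rests on them.

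The 2 intestines numbered 1 each stood at the edge of a different measure of the 2 given here. OMT replicate 1 had the highest mean level of 64 small nucleolar RNA genes, 8.75, with 7.42 to 8.28 on the other OMT arrays, and YMT replicate 1 had the lowest enterocyte level, 10.99, with 11.52 to 11.97 on the other YMT arrays. Neither edge was shared: YMT replicate 1 had a small nucleolar RNA level of 7.65, within the other YMT arrays. OMT replicate 1 had an enterocyte level of 12.04, within the other OMT arrays. The part of these measures in the low Fos, Fosb, Jun and Atf3 values was not tested. Without both intestines numbered 1 the Fosb difference was 1.20 (adjusted p = 0.00748), an alternative added after the data were seen.

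Egr1 moved with some of the other genes, and most pairs given here were picked for high values over 9 arrays. Its correlation was 0.02 with Fosb and -0.12 with Ier3 in intestine, and 0.02 with Atf3 and 0.03 with Ier3 in liver. In intestine Egr1 and Ier2 had a Pearson correlation of 0.87 (Spearman 0.82) and 0.65 without OMT replicates 2 and 4, and Egr1 and Klf6 had 0.75 (Spearman 0.75) and 0.96 without them. Egr1 and Junb had 0.64 (Spearman 0.47) in intestine and 0.33 without the same arrays. In liver Egr1 and Junb had 0.93 (Spearman 0.87) and 0.77 without OMT replicate 4 and YMT replicate 1, and Egr1 and Klf6 had 0.67 (Spearman 0.58) and 0.71 without those. Egr1 and Ier2 had 0.12 (Spearman 0.05) in liver. Dusp1 and Junb in liver had 0.83 (Spearman 0.73), which was 0.21 without YMT replicates 1 and 3. The map of deviations shows the low Fos, Fosb, Jun and Atf3 on the intestines numbered 1. It also shows the high Egr1, Dusp1 and Junb on YMT liver 1, at 1.31, 1.01 and 0.72 above their group means. Jun lay 0.40 above on that liver and Fos 0.05 below.

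**Figure D3:**
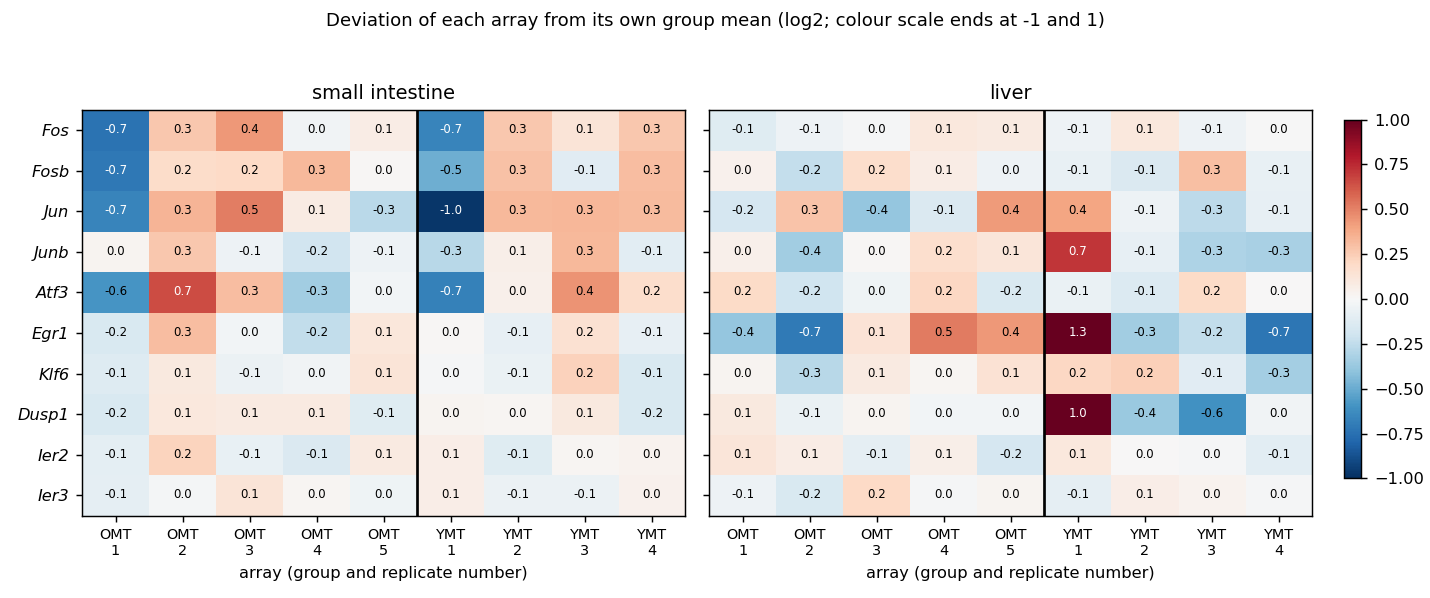
Deviation of each array from its own group mean on the log2 scale (colour and printed value), for the 10 genes (rows) on the 5 OMT and 4 YMT arrays (columns) of small intestine (left) and liver (right). Fos, Fosb, Jun and Atf3 are low on intestine arrays OMT 1 and YMT 1, by 0.49 to 0.98, and Egr1, Dusp1 and Junb are high on liver array YMT 1, by 0.72 to 1.31.

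The genes whose deviations were most like the mean standardised deviation of the 10 were, in intestine, Mad2l1bp (Pearson 0.96), Plekhf2 (0.96), Specc1l (0.95), Magi3 (0.95) and Cd274 (0.94), with Spearman values of 0.93 to 0.98. In liver they were Ndufv3 (0.96), Arrdc3 (0.96), Pim1 (0.95), Ddb1 (0.95) and Rpp40 (0.94), with Spearman values of 0.89 to 0.97. Each rests on 9 arrays and was picked as the highest among all genes tested, so high values were bound to occur. Of the 10, Pim1, a kinase of cytokine signalling, also belongs to the early response genes described next.

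The wider early response was taken from 9 lists of related factors, feedback regulators and upstream signalling genes. Of 126 such genes named on the array, 117 were tested in intestine, where 2 were higher and 7 lower in OMT and 108 did not pass, with a median difference of -0.04. In liver 121 were tested, 12 were higher and 12 lower, and 97 did not pass, with a median of -0.03. The shares higher and lower were 1.71% and 5.98% in intestine and 9.92% and 9.92% in liver, next to the background shares of all genes given above. The counts by list below are to be read beside the same background shares. For genes of these lists, the losses given are mainly those with single arrays left out. Other alternatives lost some of these calls too.

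**Figure D4:**
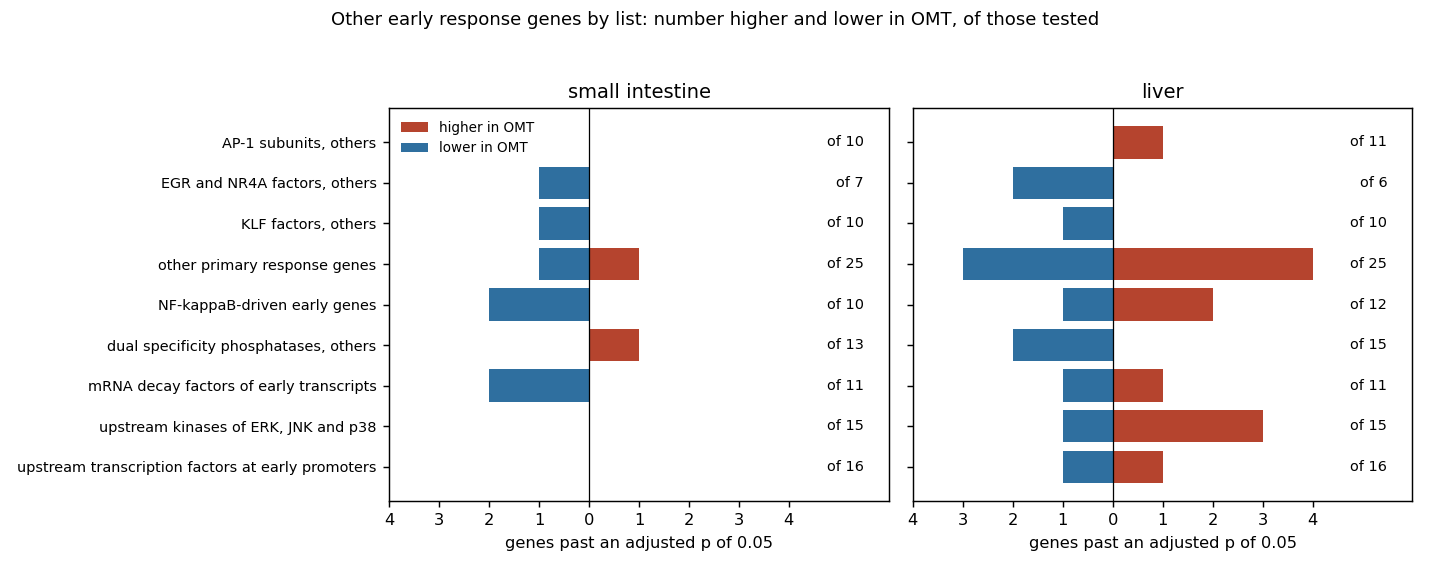
Number of genes that passed an adjusted p of 0.05, higher (right of 0) and lower (left of 0) in OMT, for 9 lists of early response genes in small intestine (left) and liver (right); the number tested stands at the right edge. The intestine shows 2 genes higher and 7 lower of 117, and the liver 12 and 12 of 121.

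Relatives of the described genes are given by family. Of the other AP-1 subunits none of 10 passed in intestine, where Batf2 had the smallest p (-0.63 ± 0.16, adjusted p = 0.0553), and in liver 1 of 11, Mafg, was higher (0.49 ± 0.11, adjusted p = 0.0115). Of the EGR and NR4A factors and their NAB corepressors, 7 were tested in intestine and 6 in liver. Nab1, which restrains EGR1, was lower in both tissues, by -0.58 ± 0.14 in intestine (adjusted p = 0.0497) and -0.32 ± 0.08 in liver (adjusted p = 0.0183). Nab2 was lower in liver (-0.43 ± 0.13, adjusted p = 0.044). The intestinal Nab1 call was lost without any single array except OMT replicates 1 and 5 (adjusted p up to 0.125), the liver one without YMT replicate 2 (0.0579), and that of Nab2 with any left out except OMT replicates 3 and 4 and YMT replicate 3 (up to 0.129). Of 10 other KLF factors, Klf9 was lower in intestine (-0.47 ± 0.11, adjusted p = 0.0394), a call lost without any single array except YMT replicate 3 (up to 0.114). Klf10, a factor induced by TGF-beta, was lower in liver (5.78 in OMT against 7.08 in YMT, -1.30 ± 0.19, adjusted p = 0.000941) and passed with each array left out.

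Other primary response genes split in both directions. In intestine Pim1 was lower (8.07 in OMT against 9.15 in YMT, -1.07 ± 0.14, adjusted p = 0.005) and passed with each array left out. Ier5, a relative of Ier2, was higher (0.58 ± 0.11, adjusted p = 0.0201), though not without OMT replicate 2 (0.0537) or YMT replicate 4 (0.0504). In liver 4 of 25 were higher and 3 lower, and those of smallest p were Csrnp1 (-0.78 ± 0.18), Id3 (0.84 ± 0.21), the clock gene Per1 (1.09 ± 0.28) and the YAP target Ccn2 (-0.26 ± 0.07), at adjusted p-values of 0.0128, 0.0177, 0.0212 and 0.0231. Id3 was lost without YMT replicate 4 (0.056), Per1 without YMT replicate 2 (0.0564), and Ccn2 without OMT replicate 1 (0.0513) or YMT replicate 2 (0.0711). Csrnp1 passed with each single array left out, but not without the arrays numbered 1 of both groups (0.0735). Per1 was also lost with the replicate block (0.0797), without OMT livers 1 and 2 (0.101) and without the arrays numbered 1 (0.0768). Ccn2 was lost under the same alternatives (0.0791, 0.0985 and 0.0733).

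Among early genes driven by NF-kappaB, the inhibitor of the pathway Nfkbia (-0.74 ± 0.13, adjusted p = 0.0158) and the apoptosis inhibitor Birc3 (-0.79 ± 0.12, adjusted p = 0.00867) were lower in the OMT intestine, of 10 tested with a median of -0.44. Nfkbia was lost without YMT replicate 2 (0.0604), with the small nucleolar RNA covariate (0.0617) and without the 2 arrays of highest small nucleolar RNA level (0.0549). In liver Birc3 was lower as well (-0.60 ± 0.15, adjusted p = 0.017), while the IkB relatives Nfkbiz (0.62 ± 0.11, adjusted p = 0.003) and Bcl3 (0.57 ± 0.11, adjusted p = 0.0044) were higher, of 12 tested with a median of 0.00. These 3 liver calls and that of Birc3 in intestine passed with each array left out.

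Of the feedback regulators other than Dusp1, 1 of 13 was called in intestine, as higher, where 1.04% of all genes were higher. In liver 2 of 15 were called, both lower, where 8.78% of all genes were lower. In intestine Dusp16, a phosphatase of JNK, was higher (0.63 ± 0.13, adjusted p = 0.027), and 12 other phosphatases and Sprouty or Spred genes did not pass. The Dusp16 call was lost without OMT replicate 2 (0.0636) or 3 (0.0615) or YMT replicate 1 (0.0699), 2 (0.056) or 4 (0.0768). In liver Spred2 (-0.54 ± 0.14, adjusted p = 0.0205) and Spry4 (-0.59 ± 0.19, adjusted p = 0.05), inhibitors of the ERK pathway, were lower. Spred2 was lost without OMT replicate 5 (0.0526) or YMT replicate 1 (0.0606) or 3 (0.0595), and Spry4 without any array except OMT replicates 1 and 2 (up to 0.109).

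Factors that govern the decay of early messengers gave 2 calls of 11 in each tissue. In intestine Hnrnpd (-0.51 ± 0.10, adjusted p = 0.027) and the exonuclease Xrn1 (-0.43 ± 0.10, adjusted p = 0.0378) were lower. Hnrnpd was lost without OMT replicate 2 (0.0601) or 3 (0.0608) or YMT replicate 1 (0.0593), 2 (0.0712) or 4 (0.0713), and Xrn1 without any array except OMT replicate 5 (up to 0.105). In liver Zfp36l2, which promotes the decay of AU-rich messengers, was lower (-0.36 ± 0.09, adjusted p = 0.0185), and Elavl1, which stabilises them, was higher (0.29 ± 0.08, adjusted p = 0.0291). Zfp36l2 was lost without YMT replicate 1 (0.0514) or 3 (0.052), and Elavl1 without OMT replicate 3 (0.0608) or 5 (0.0711) or YMT replicate 2 (0.0893), 3 (0.0559) or 4 (0.0779).

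Upstream of the described genes, none of 15 kinases and none of 16 transcription factors passed in intestine, where Map2k3 (0.32 ± 0.08, adjusted p = 0.0554) and Crem (0.22 ± 0.08, adjusted p = 0.138) had the smallest p. In liver Mapk14, which encodes p38 alpha, was higher (7.71 in OMT against 6.90 in YMT, 0.82 ± 0.08, adjusted p = 7.29e-05), as were Map2k3, which activates p38 (0.41 ± 0.11, adjusted p = 0.0211), and Araf (0.29 ± 0.08, adjusted p = 0.0343). The growth factor receptor Egfr was lower (-0.68 ± 0.21, adjusted p = 0.0427). The stress factor Ddit3, which pairs with C/EBP proteins, was 3.23-fold higher in the OMT liver (7.07 in OMT against 5.38 in YMT, adjusted p = 0.000388), and the CREB coactivator Crtc3 was lower (-0.30 ± 0.09, adjusted p = 0.0328).

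Of these liver calls Mapk14 and Ddit3 passed with each array left out. Map2k3 was lost without OMT replicate 5 (0.0545), Araf without any array except OMT replicate 4 and YMT replicate 1 (up to 0.0913), and Crtc3 without OMT replicate 3 (0.0647), 4 (0.0583) or 5 (0.0635) or YMT replicate 1 (0.0816) or 3 (0.0845). Egfr was lost without any array except OMT replicates 1 and 5 and YMT replicate 1 (up to 0.109).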

How the data were processed

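The submitters extracted total RNA with an RNeasy kit and labelled 250 ng of each sample for 1 Affymetrix array, per the labels' protocols. The authors deposited log2 values, made by RMA with Affymetrix software (Expression Console in the submitters' processing notes). No version, genome build or log base is recorded; base 2 was inferred from values of 0.3 to 13.5, the usual range of RMA output. Joint normalization of both tissues is not stated, so levels were compared within a tissue. Precision is limited by how many arrays each group has.

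The array holds 41345 probe sets: 23521 carry 1 gene symbol, 1814 carry several and 16010 carry none here, and only the first kind was used. Current symbols came from RefSeq (GRCm38.p6) through the gene ID for 23328. For each gene the brightest probe set on average was kept, and the gene was tested in a tissue where at least 4 of 9 arrays gave a value over the median of that array. OMT and YMT were compared with limma 3.58.1 in R 4.3.3 (lmFit and eBayes, two-sided, Benjamini-Hochberg over 13238 genes in intestine and 13380 in liver), and the tissues through the interaction in a fit of 18 arrays. The steps were tested on simulated arrays. No arrays were identical. Titles call the samples biological replicates. The p-values set a group difference against the spread between recipients within a group. With the numbers of donors and cages not stated, they do not cover the spread between donors or cages.

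The genes and lists were chosen with earlier results of these data known. All 10 genes are named, and from each list up to 4 called genes of smallest p, or else the 1 of smallest p, and per tissue the 5 genes of highest correlation. Same-numbered samples of the groups were not paired: correlations of their deviations lay between -0.06 and 0.32 in intestine and between -0.18 and 0.09 in liver. Alternatives were other filters, eBayes settings, scalings, probe set means, array weights, a replicate block, a small nucleolar RNA covariate, a threshold of 0.10 and arrays left out. Figures were drawn with matplotlib 3.10.9.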

Additional observations from a re-analysis of the deposited data

Results flagged for a closer look

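In 3 of 40 sets of 4 or 5 arrays, 1 array lay far from the others by Dixon's test, which chance does in about 1 set of 20. In the YMT intestines replicate 1 was far below the rest for Fos (7.80, with 8.59 to 8.73 on the others) and for Jun (7.45, with 8.74 to 8.76). In the YMT livers replicate 3 was far above the rest for Fosb (4.63, with 4.18 to 4.25), at a level near the arrays' medians.

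The OMT minus YMT difference in intestine minus that in liver passed limma's interaction test for Fosb, at 1.31 (adjusted p = 0.00385), and for Dusp1, at 1.16 (adjusted p = 0.0144). Fosb in liver lay close to the array medians, above them on 3 of 5 OMT and 4 of 4 YMT arrays, so its liver difference cannot be read as a lack of change. The OMT arrays were higher for Fosb in intestine on 5 of 5 arrays and lower for Dusp1 in liver on 5 of 5.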

How the results depend on the processing

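Fosb in intestine passed under all 13 alternatives other than leaving out single arrays (differences of 1.14 to 1.52, adjusted p up to 0.0366). Not all of these could have lost the call. The looser threshold cannot lose any call, and the mean over probe sets left Fosb unchanged, since it has 1 probe set. Leaving out the arrays numbered 1, chosen after seeing the data, removed the lowest Fosb value of each group and so narrowed the spread. Leaving out single arrays lost the call in 5 of 9 fits. The tissue differences of Fosb and Dusp1 passed under every alternative run, with the looser threshold again among them. The number of the 10 genes higher in the OMT intestine was 0 to 1 with single arrays left out, and the number lower stayed 0. In liver the number higher was 0 to 2 and the number lower 0 to 1 with single arrays left out. The number higher in liver was 1 with no filter, the stricter filter (which Atf3 did not pass), arrays centred on their medians, the replicate block, the small nucleolar RNA covariate, or without the arrays numbered 1, and 0 with all 18 arrays in the fit or without OMT livers 1 and 2. The number lower, which is Dusp1, was 0 with no filter, the replicate block, the covariate, or without OMT livers 1 and 2. The block's adjusted p was 0.0539 for Dusp1 and 0.0566 for Atf3. The titles do not state that the numbers pair these samples. In each tissue and group at most 1 of 4 arrays correlated best with its own number. Whether same-numbered samples shared a processing step was not tested.

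Over all genes, the intestine had 138 higher and 410 lower in OMT. These became 78 and 232 with no filter, 365 and 1080 with all 18 arrays, 368 and 804 with array weights, 382 and 949 at a threshold of 0.10, 78 and 156 without the 2 arrays of highest small nucleolar RNA level, and 88 and 211 without the arrays numbered 1. Quantile normalization gave 245 higher, and the covariate 152 lower. Single arrays left out gave 37 to 155 higher and 113 to 481 lower in intestine, and 928 to 1514 higher and 872 to 1166 lower in liver. The liver, with 1388 higher and 1175 lower, had 740 and 719 with the block and 724 lower without the arrays numbered 1.

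Some differences that did not pass changed sign. In intestine Ier3 was -0.0075 with centred arrays. Junb was -0.034 with the covariate, -0.012 without the 2 arrays of highest small nucleolar RNA level or without those numbered 1, and -0.0047 to 0.20 with single arrays left out. Jun was -0.03 to 0.46 and Klf6 -0.12 to 0.0087 with single arrays left out. In liver Egr1 was -0.51 to 0.17 with single arrays left out, 0.092 without OMT livers 1 and 2 and 0.26 without the arrays numbered 1. The tissue difference was 0.025 for Atf3 and 0.039 for Ier3 after quantile normalization, and with single arrays left out it was -0.30 to 0.078 for Atf3, -0.045 to 0.043 for Ier3 and -0.39 to 0.29 for Egr1. The cause of these changes was not tested. Fits with arrays left out also rest on fewer samples. The alternative without the arrays numbered 1 was chosen after seeing the data. Signal over background limits Fos and Fosb in liver, which lay near the array medians.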
